A study of Caenorhabditis elegans with 4 samples.

Results

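The F-box genes of the families fbxa, fbxb and fbxc are described here in whole adult Caenorhabditis elegans kept in normoxia or hypoxia. Members were the loci whose deposited name was fbxa, fbxb or fbxc followed by a number, and 344 of 19852 loci matched, 190 of fbxa, 110 of fbxb and 44 of fbxc. They carried 342 distinct names, since fbxa-78 and fbxa-17 each named 2 loci. The animals were wild-type N2 at 20 °C, fed bacteria with either an empty RNAi vector (control RNAi, called control food here) or an elt-2 RNAi construct. Feeding RNAi makes worms take up double-stranded RNA of a target gene, and elt-2 encodes a GATA transcription factor of the intestine. From day 1 of adulthood the hypoxia groups spent 36 h at 0.5% oxygen in nitrogen, and the normoxia groups stayed in room air. Total RNA of whole animals gave 4 libraries, 1 for each combination of RNAi food and oxygen, so no value has a replicate error and no single pairwise difference has a test.

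F-box proteins are the substrate receptors of SCF ubiquitin ligases, in which the F-box binds a Skp1-related adapter and the adapter binds a cullin. The rest of the protein, in fbxa often an FTH domain and in fbxb an F-box-associated domain, is thought to choose the target. The C. elegans genome holds unusually many such genes, many of them in local clusters, and most have no known target. FBXA-158 and FBXA-75 are known to work with the cullin CUL-6 in the intracellular pathogen response, the transcriptional response to microsporidia and to the Orsay virus.

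Across the whole series, 10462 to 11048 loci were listed at 1 RPKM or more per library, RPKM being reads per kilobase of transcript scaled to mapped reads. RNA of the targeted gene did not follow the labels: elt-2 was at 4.81 RPKM on control food in normoxia and 15.2 on control food in hypoxia, and at 14.3 and 23.8 in the elt-2-labelled normoxia and hypoxia libraries. Those libraries are therefore called elt-2-labelled throughout, and every direction given for them is that of the label. Every marker of intestine, germline, muscle, neuron and epidermis looked for was above 0 in each library. In such bulk RNA, fewer cells of a type and less RNA per cell cannot be told apart. Summed intestine markers were at 2198, 3813, 744 and 1495 RPKM on control food in normoxia and hypoxia and in the elt-2-labelled normoxia and hypoxia libraries. On control food that sum rests mostly on asp-1, at 760, 1767, 360 and 475 RPKM, and cpr-6, at 906, 928, 108 and 58.8 RPKM. By contrast ifb-2, at 26.6, 101, 29.2 and 231 RPKM, and act-5, at 154, 297, 89.9 and 386 RPKM, were higher under the label in hypoxia. The intestine list thus went both ways there. Muscle markers summed to 659, 1537, 606 and 1458 RPKM in the same order.

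Most F-box loci were listed at low levels. Of the 344 loci, 24 were at 0 in all 4 libraries, 141 had a mean above 0 and under 1 RPKM, 111 had a mean from 1 to under 5 RPKM, and 68 had a mean of at least 5 RPKM. A mean of at least 10 RPKM was reached by 34 loci and one of at least 50 RPKM by 6. Ratios were computed for the 179 loci with a mean of at least 1 RPKM, which is 52.0% of the members and compares with 53.7% of all loci. These 179 loci comprised 91 of fbxa, 64 of fbxb and 24 of fbxc. The median of their mean levels was 3.37 RPKM, against 23.0 RPKM for the 10655 genes compared, so the families sat low among expressed genes. Just inside the limit were fbxa-99, fbxb-77 and fbxb-97, with means of 1.00 RPKM each, and just outside were fbxb-117, fbxb-116 and fbxb-93, at 0.990, 0.977 and 0.972 RPKM. The current annotation lists 306 members as protein coding, of which 55.9% were compared, and 38 as pseudogenes, of which 21.1% were compared.

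The summed level of the families together was similar in all libraries, while those of the single families were not. The 344 loci summed to 1833 RPKM on control food in normoxia, 1874 on control food in hypoxia, 1749 in the elt-2-labelled normoxia library and 1888 in the elt-2-labelled hypoxia library. The fbxa loci summed to 1187, 1398, 1224 and 1465 RPKM in that order, and both hypoxia libraries were above both normoxia libraries. The fbxb loci summed to 342, 225, 224 and 181 RPKM, with control food in normoxia above the other libraries. The fbxc loci summed to 304, 251, 302 and 242 RPKM, and both hypoxia libraries were below both normoxia libraries.

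A single gene, fbxa-215, carried between 15.2% and 21.7% of all member RPKM in a library. This locus, on chromosome IV from 13665345 to 13666845 (ce10, minus strand), was at 349.9 RPKM on control food in normoxia, 285 on control food in hypoxia, 380.2 in the elt-2-labelled normoxia library and 293 in the elt-2-labelled hypoxia library. Both hypoxia libraries were lower than both normoxia libraries. The average effect of hypoxia over the RNAi foods, fitted with limma on log2(RPKM + 1) across all compared genes, was -0.33 ± 0.07 (SE) for fbxa-215, with a Benjamini-Hochberg adjusted p of 0.0374. The next in level was fbxa-210, on chromosome V, at 116, 129, 119 and 135 RPKM in the same order, and its hypoxia effect did not pass the threshold of 0.05 (limma adjusted p = 0.126). fbxa-60, next after it, was at 70.0, 105, 72.3 and 169.6 RPKM, and it rose in hypoxia by 0.90 ± 0.18 (SE) on the log2 scale (limma adjusted p = 0.0377). fbxa-101 on chromosome I, at 73.5, 87.6, 69.4 and 76.5 RPKM, did not pass the threshold (limma adjusted p = 0.111). The most abundant members thus differed in direction. The 10 loci with the highest mean over the 4 libraries held between 45.7% and 52.8% of the member RPKM of a library.

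**Figure D1:**
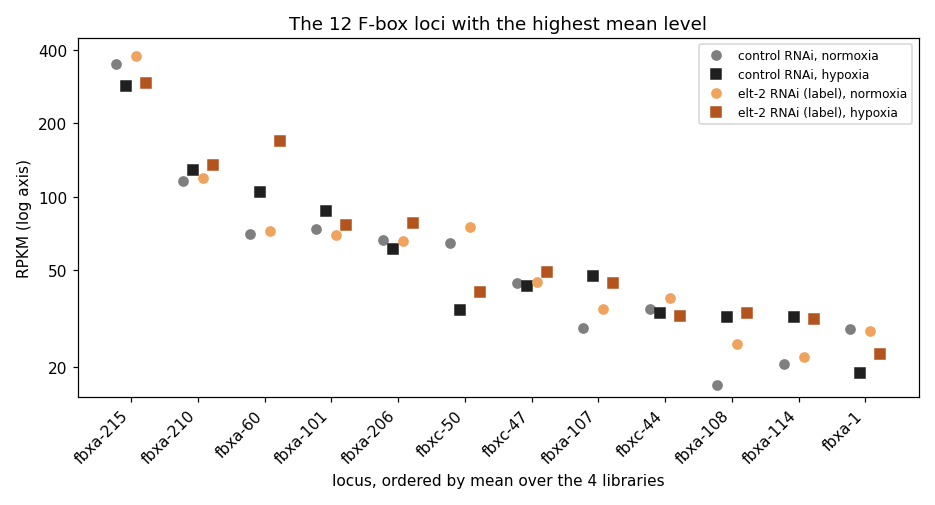
RPKM (vertical log axis) of the 12 F-box loci with the highest mean over the 4 libraries (horizontal axis), with 1 point per library and no replicates. fbxa-215 lies well above the rest, from 285 to 380.2 RPKM, and for fbxa-60 and fbxc-50 the squares of the hypoxia libraries lie on opposite sides of the circles of the normoxia libraries.

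Hypoxia was associated with higher levels of many fbxa loci and lower levels of a smaller set of fbxb loci, in both RNAi foods. Of the 179 compared members, limma called 39 higher and 26 lower in hypoxia on average over both foods at an adjusted p of 0.05. Among all compared genes 17.2% were called higher and 15.7% lower, and among genes with a mean of 1 to under 10 RPKM 17.5% were higher and 7.56% lower. The fbxa family had 34 loci that rose and 5 that fell, the fbxb family 1 that rose and 15 that fell, and the fbxc family 4 that rose and 6 that fell. The fit has 1 residual degree of freedom, the interaction of oxygen and food, and with no filter on low values limma called 0 members and 0 of 19512 genes, although 88 of 344 members had an unadjusted p under 0.05 there. Low genes as a whole ran higher in hypoxia, with a median log2 ratio of 0.26 on control food and 0.19 in the elt-2-labelled libraries against 0.01 and -0.01 for all genes. With all libraries centred on genes of a like level, the split was 24 higher and 30 lower, of which fbxa had 22 and 5, fbxb 1 and 19, and fbxc 1 and 6.

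**Figure D2:**
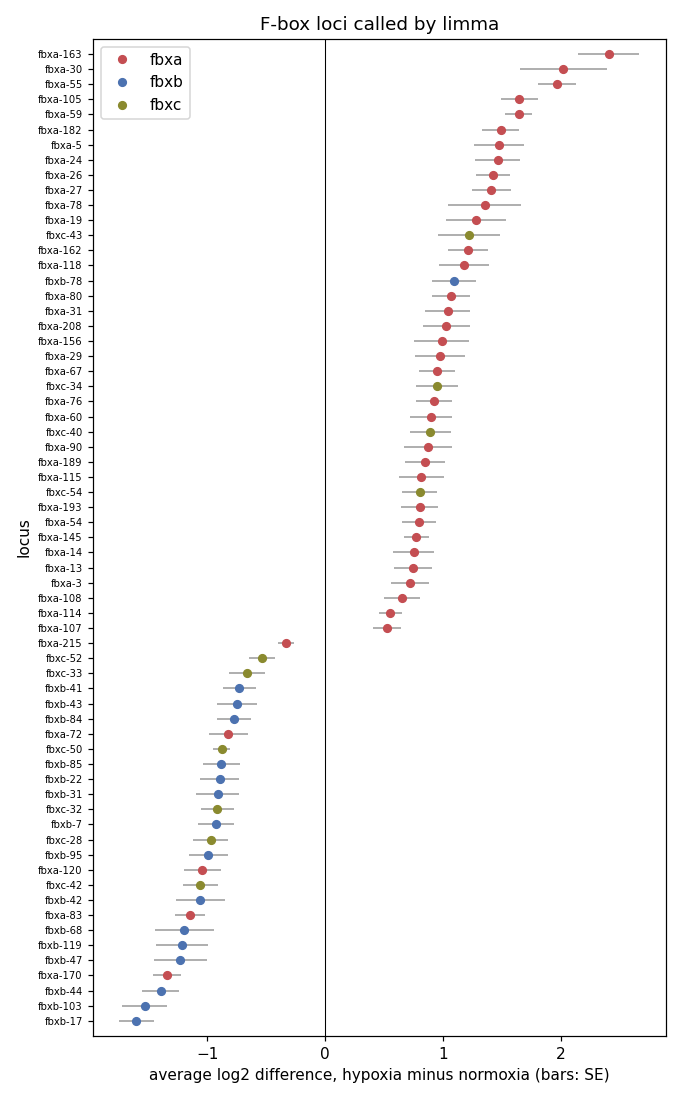
Average log2 difference of hypoxia minus normoxia from limma (horizontal axis, bars: SE) for the 65 F-box loci called at an adjusted p of 0.05 (vertical axis), coloured by family. fbxa points make up 34 of the 39 points right of 0, and fbxb points 15 of the 26 left of 0.

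On control food, hypoxia levels of 21 members were higher by 2-fold or more and of 13 lower by that much, on the log2(RPKM + 1) scale that understates changes of low genes. In that comparison 9.48% of all compared genes passed 2-fold upward and 3.55% downward, and for genes with a mean of 1 to under 10 RPKM the shares were 14.0% and 5.01%. The higher members were 19 of fbxa, 1 of fbxb and 1 of fbxc, and the lower ones 2 of fbxa, 9 of fbxb and 2 of fbxc. Centred on genes of a like level, the 21 higher and 13 lower loci became 14 and 21. In the elt-2-labelled libraries, 27 members passed 2-fold upward in hypoxia and 9 downward, against 9.87% and 4.25% of all compared genes and 13.3% and 5.73% of genes with a mean of 1 to under 10 RPKM. Here 26 of the higher loci belonged to fbxa, 1 to fbxb and none to fbxc, and centring on genes of a like level gave 21 higher and 17 lower.

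The median log2 hypoxia ratio of the 91 fbxa loci was 0.51 on control food and 0.49 in the elt-2-labelled libraries. For the 64 fbxb loci it was -0.31 and -0.09, and for the 24 fbxc loci -0.05 and -0.01. With ratios centred on genes of a like level the fbxa medians were 0.33 and 0.42, the fbxb medians -0.58 and -0.28, and the fbxc medians -0.13 and -0.14. Of the fbxa loci, 64 were higher in both foods by any amount and 14 lower in both, while 16 fbxb loci were higher in both and 36 lower. Of all compared genes 42.4% were higher in both and 42.2% lower in both. At least 2-fold in both foods were 11 fbxa loci higher and 1 lower, and 3 fbxb loci and 1 fbxc locus lower, against 5.86% of all compared genes higher and 2.3% lower. No member passed 2-fold in opposite directions in the foods. Across the 179 loci the ratios of the foods, which share no library, had a Spearman rho of 0.84, against 0.81 across all compared genes, as a description across genes that are not independent.

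**Figure D3:**
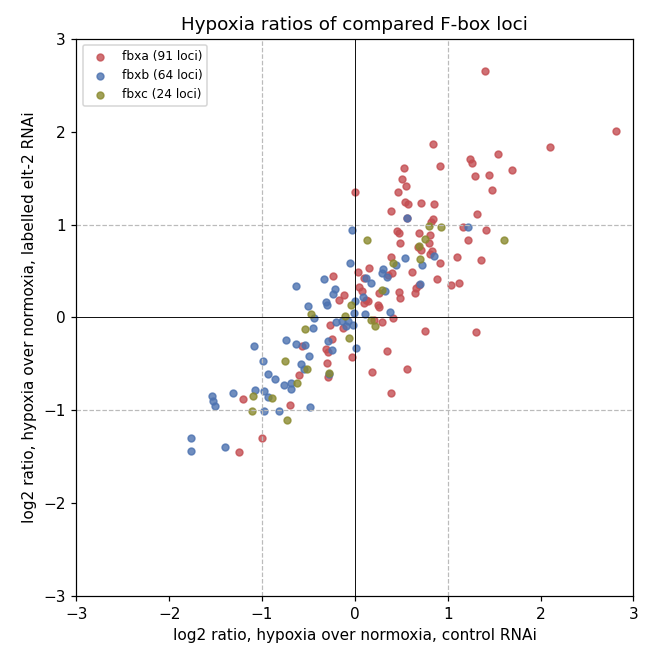
Log2 ratio of hypoxia over normoxia for the 179 compared F-box loci on control food (horizontal axis) and in the elt-2-labelled libraries (vertical axis), 1 point per locus, dashed lines at 2-fold. fbxa points fill the upper right, with 64 of 91 above 0 on both axes, and fbxb points the lower left, with 36 of 64 below 0 on both.

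Averaged over both foods, the largest fbxa increase in the limma fit was that of fbxa-163, on chromosome II from 1609323 to 1610722 (ce10, minus strand). It was at 1.81 RPKM on control food in normoxia, 18.7 on control food in hypoxia, 1.04 in the elt-2-labelled normoxia library and 7.21 in the elt-2-labelled hypoxia library. Both hypoxia libraries stood far above both normoxia libraries, and the average rise was 2.41 ± 0.26 (SE) on the log2 scale (limma adjusted p = 0.0187). Under the elt-2 label alone, fbxa-30 had the higher log2 ratio, 2.65 against 2.01 for fbxa-163. fbxa-163 lies in a stretch of chromosome II where fbxb loci are the majority. Its near neighbour fbxa-158, the CUL-6 partner, was at 0.124, 0.632, 0 and 0.0372 RPKM in the same order, too low for a ratio here. The other CUL-6 partner, fbxa-75, was at 0, 0.145, 0 and 0.172 RPKM, with both values above 0 in hypoxia.

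Other fbxa loci that rose included fbxa-55, fbxa-30, fbxa-105 and fbxa-59. fbxa-55, on chromosome III from 933574 to 936056 (ce10, minus strand), was at 2.20, 12.8, 3.43 and 14.7 RPKM on control food in normoxia and hypoxia and in the elt-2-labelled normoxia and hypoxia libraries. Its average rise was 1.97 ± 0.16 (SE) on the log2 scale (limma adjusted p = 0.0147). fbxa-59, from 940868 to 943447 on the same chromosome, was at 9.73, 33.7, 6.66 and 22.02 RPKM and rose by 1.64 ± 0.11 (SE, limma adjusted p = 0.0144). In both genes the ratios of the foods were close to each other, at 2.11 and 1.83 for fbxa-55 and 1.69 and 1.59 for fbxa-59. fbxa-105, on chromosome V from 7390508 to 7392068 (ce10, minus strand), was at 4.19, 14.1, 1.76 and 8.31 RPKM. Its rise was 1.65 ± 0.16 (SE, limma adjusted p = 0.0169), with both values under the elt-2 label below those of control food at the same oxygen level. fbxa-30, on chromosome III from 1274506 to 1275580 (ce10, minus strand), was near 0 in normoxia, at 0.113 and 0.374 RPKM, and at 1.93 RPKM on control food in hypoxia and 7.62 in the elt-2-labelled hypoxia library. Its fitted rise was 2.02 ± 0.37 (SE, limma adjusted p = 0.0336), and the wide error goes with ratios of 1.40 on control food and 2.65 under the elt-2 label. Without its hypoxia values fbxa-30 would not have reached a mean of 1 RPKM, so the filter favoured a rise.

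Further fbxa loci also rose. fbxa-182, at 1.79, 6.60, 2.76 and 9.88 RPKM in the same order, rose by 1.49 ± 0.16 (SE, limma adjusted p = 0.0184). fbxa-26, at 2.71, 9.34, 4.70 and 13.7 RPKM, rose by 1.42 ± 0.15 (SE, limma adjusted p = 0.0177). fbxa-24 and fbxa-27 lay between 1.97 and 2.68 RPKM in normoxia and between 6.34 and 9.57 in hypoxia. All of these had both hypoxia libraries above both normoxia libraries. The remaining fbxa loci called higher had average rises between 0.52 (fbxa-107) and 1.47 (fbxa-5).

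The 5 fbxa loci that fell were fbxa-170, fbxa-83, fbxa-120, fbxa-72 and fbxa-215. fbxa-170, on chromosome X from 1676492 to 1678102 (ce10, minus strand), was at 27.6 RPKM on control food in normoxia, 11.1 on control food in hypoxia, 28.4 in the elt-2-labelled normoxia library and 9.77 in the elt-2-labelled hypoxia library. It fell by 1.35 ± 0.12 (SE) on the log2 scale (limma adjusted p = 0.0157). fbxa-83, on chromosome IV, was at 27.05, 13.05, 29.9 and 11.6 RPKM and fell by 1.15 ± 0.13 (SE, limma adjusted p = 0.0196). Both genes had similar levels in the foods at a given oxygen level. Of the 6 compared fbxa loci on chromosome X, 2 fell and none rose, and of the 3 on chromosome IV 2 fell and none rose. On chromosomes II, III and V, which hold most fbxa loci, 5 of 8, 18 of 34 and 10 of 35 compared loci rose and 0, 0 and 1 fell. The shares of all compared genes were 17.2% higher and 15.7% lower.

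The fbxb loci that fell were led by fbxb-17, on chromosome II from 1676422 to 1677297 (ce10, plus strand). It was at 31.03 RPKM on control food in normoxia, 8.41 on control food in hypoxia, 17.8 in the elt-2-labelled normoxia library and 5.92 in the elt-2-labelled hypoxia library. Its average fall was -1.60 ± 0.14 (SE) on the log2 scale (limma adjusted p = 0.016). fbxb-103, also on chromosome II, from 3907169 to 3908281 (ce10, plus strand), was at 13.4, 3.24, 7.28 and 2.36 RPKM and changed by -1.53 ± 0.19 (SE, limma adjusted p = 0.0218). fbxb-44 was at 8.82, 2.72, 5.54 and 1.49 RPKM and changed by -1.40 ± 0.16 (SE, limma adjusted p = 0.020). All 3 shared one order of libraries, with control food in normoxia highest, the elt-2-labelled normoxia library next, control food in hypoxia after it and the elt-2-labelled hypoxia library lowest. The other 12 fbxb loci called lower, among them fbxb-47, fbxb-119, fbxb-68 and fbxb-42, had averages between -1.23 and -0.73. The only fbxb locus that rose was fbxb-78 on chromosome IV, at 0.956, 3.54, 0.931 and 2.78 RPKM, with an average of 1.09 ± 0.18 (SE, limma adjusted p = 0.0303).

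Markers of sperm and some of those of the early embryo were lower in hypoxia, as many fbxb loci were. The 35 sperm markers, mostly major sperm protein genes, summed to 65.2 RPKM on control food in normoxia, 7.59 on control food in hypoxia, 36.7 in the elt-2-labelled normoxia library and 6.75 in the elt-2-labelled hypoxia library, and 3, 7, 2 and 7 of them were at 0. Embryo markers summed to 59.2, 23.0, 40.1 and 18.9 RPKM, with 1 of 11 at 0 in each library. Both sums had the order of libraries seen for fbxb-17, 1 of the loci that fell most. The sum of all fbxb loci did not have it. That sum was 342, 225, 224 and 181 RPKM, with control food in hypoxia about level with the elt-2-labelled normoxia library. The elt-2-labelled hypoxia library was the lowest of the 4 libraries for 29 of 64 compared fbxb loci. limma called all 13 compared sperm markers lower in hypoxia and, of 6 compared embryo markers, 3 lower and 1 higher. All 13 sperm markers were under 1 RPKM in both hypoxia libraries. They reached a mean of 1 RPKM only through the normoxia libraries, so the filter favoured that direction. The early transcript pes-10 and the T-box genes tbx-37 and tbx-38 fell by 2.21, 1.70 and 2.11 on the log2 scale (limma adjusted p = 0.0144, 0.0203 and 0.0144), while pha-4, a regulator of pharynx development, rose by 0.94 (limma adjusted p = 0.0332), so the embryo list went both ways. The 15 germline and oocyte markers summed to 10200.1, 7716, 11067 and 8728 RPKM, 9 of them fell and none rose, with no marker at 0. The part of sperm, embryo or germline RNA in the fbxb result was not tested. Beside the fbxa increases, 7 of 12 intestine markers and 6 of 8 muscle markers rose and none fell, and their part was not tested either. For all these lists, the shares of all compared genes were 17.2% higher and 15.7% lower. Among genes with a mean of 1 to under 10 RPKM they were 17.5% and 7.56%.

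Calls in the fbxc family went both ways, as they did among all compared genes. Of 24 compared fbxc loci limma called 16.7% higher and 25% lower in hypoxia, against 17.2% and 15.7% of all compared genes. The gene with the highest level, fbxc-50, on chromosome II from 3246324 to 3248122 (ce10, minus strand), was at 64.3 RPKM on control food in normoxia, 34.3 on control food in hypoxia, 74.8 in the elt-2-labelled normoxia library and 40.4 in the elt-2-labelled hypoxia library. It fell by 0.88 ± 0.07 (SE) on the log2 scale (limma adjusted p = 0.0147), with both hypoxia libraries below both normoxia libraries. fbxc-42, fbxc-28, fbxc-32, fbxc-33 and fbxc-52 also fell, by 0.54 to 1.06. fbxc-43, at 0.992, 5.08, 2.12 and 4.54 RPKM, rose by 1.22 ± 0.26 (SE, limma adjusted p = 0.0421), and fbxc-34, fbxc-40 and fbxc-54 rose by 0.80 to 0.95. fbxc-47 and fbxc-44, next in level to fbxc-50, lay between 32.4 and 49.1 RPKM in every library and did not pass the test.

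The members lie in groups along the chromosomes. Taking as a run any stretch with at least 5 members and gaps of 100 kb or less, 19 runs held 228 of the 344 members and 118 of the 179 compared. Chromosome II holds 121 members, with 62 of the 110 fbxb and 40 of the 44 fbxc loci, chromosome V holds 93, and chromosome III 74, of which 65 are fbxa. The largest run, on chromosome II from 1536266 to 1863787 (ce10), has 45 members, 30 of them fbxb. Its 23 compared loci had median log2 hypoxia ratios of -0.54 on control food and -0.33 under the elt-2 label. limma called 3 of these loci higher and 6 lower, against 17.2% and 15.7% of all compared genes. The run from 868821 to 1049910 on the same chromosome has 31 members, 23 of them fbxc, and its medians over 18 compared loci were -0.07 and 0.03.

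A pair of fbxa runs on chromosome III stood at the other end. The first, from 933574 to 963515 (ce10), has 11 members, and its summed level was 99.4 RPKM on control food in normoxia, 182.8 on control food in hypoxia, 102 in the elt-2-labelled normoxia library and 239.7 in the elt-2-labelled hypoxia library. The second, from 1236007 to 1383574, has 28 members, and its sum was 47.2, 95.0, 43.1 and 120.2 RPKM. In each run both hypoxia sums were above both normoxia sums. Of the 7 compared loci of the first run limma called 5 higher and none lower, and of the 19 of the second run 12 higher and none lower, against 17.2% higher and 15.7% lower of all compared genes and 17.5% and 7.56% of genes with a mean of 1 to under 10 RPKM. In the second run 18 of 19 loci had a ratio above 0 on control food and 19 of 19 under the elt-2 label, with medians of 0.84 and 1.22, and in 16 of 19 both hypoxia libraries were above both normoxia libraries. The loci stand on both strands, 18 on the minus and 10 on the plus strand in the second run. The other loci lying within the second run number 16, and 2 of them were compared. Of the fbxa loci outside this pair of runs 65 were compared, and they had medians of 0.40 on control food and 0.29 under the elt-2 label, with 17 called higher and 5 lower. Outside all chromosome III runs, limma called 22 of 145 members higher and 25 lower.

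**Figure D4:**
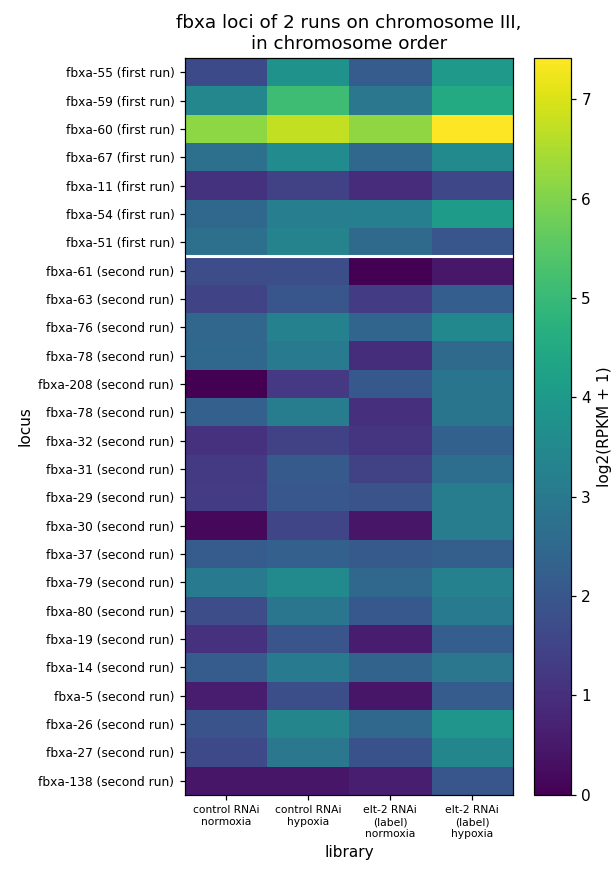
log2(RPKM + 1) (colour) of the 26 compared fbxa loci in the first and second chromosome III runs (vertical axis, in chromosome order) in the 4 libraries (horizontal axis), with a white line between the runs. Most rows are brighter in both hypoxia columns, while fbxa-61 and fbxa-208 have rows that differ by RNAi label.

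The sources used here do not give how reads shared by near-identical members were counted, so values of close paralogs are uncertain. The 2 loci named fbxa-78, from 1257205 to 1258406 and from 1265646 to 1266847 on chromosome III (ce10, minus strand), show near-equal profiles. The first was at 4.59, 7.08, 0.946 and 4.93 RPKM on control food in normoxia and hypoxia and in the elt-2-labelled normoxia and hypoxia libraries. The second was at 3.81, 7.63, 1.01 and 6.32 RPKM, and rose by 1.35 ± 0.31 (SE, limma adjusted p = 0.0465), while the first did not pass the threshold (limma adjusted p = 0.0759). Of the compared members, 2 overlap a locus on the opposite strand, among them fbxa-138, and the sources used here do not say whether strand was used. fbxa-138 was at 0.359, 0.355, 0.539 and 2.92 RPKM, so that the elt-2-labelled hypoxia library was high and the other libraries low. The locus deposited as fbxa-1, at 28.6, 18.9, 28.1 and 22.5 RPKM, is now named ppm-1.D.

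Under the elt-2 label, fbxb loci were lower at both oxygen levels by small amounts, and no member passed the test. In normoxia 1 of the 64 compared fbxb loci was above its value on control food, and 53 of 64 were lower at both oxygen levels, while none was higher at both. Of all compared genes 42.1% were lower in normoxia, 26.4% lower at both oxygen levels and 42.1% higher at both. Of genes with a mean of 1 to under 10 RPKM 56.2% were lower in normoxia and 39.0% at both oxygen levels. The median fbxb log2 ratio of elt-2 label over control food was -0.43 in normoxia and -0.22 in hypoxia, against 0.04 and 0.03 for fbxa and -0.25 and -0.19 for fbxc. The normoxia library of control food was the highest of the 4 libraries for 46 of 64 fbxb loci, 7 of 91 fbxa loci and 9 of 24 fbxc loci, and for 16.2% of all compared genes. These ratios share control food in normoxia with the hypoxia ratios of that food. Since elt-2 RNA was not lower in the labelled libraries, the direction is that of the label only. Sums of sperm and embryo markers were lower under the label in the same libraries, as given above, whereas the germline and oocyte sum was higher under the label, at 11067 against 10200.1 RPKM in normoxia and 8728 against 7716 in hypoxia. The part of these markers was not tested.

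**Figure D5:**
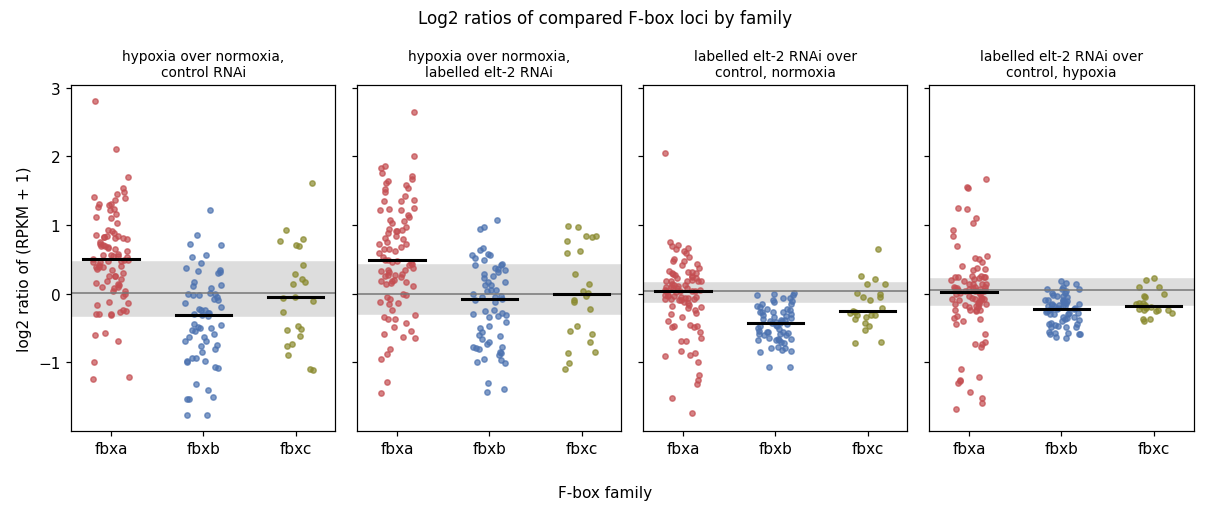
Log2 ratio of RPKM + 1 (vertical axis) for compared loci of fbxa (91), fbxb (64) and fbxc (24) in 4 pairwise comparisons of libraries (panels), 1 point per locus, thick bars at family medians. The grey band spans the interquartile range of all compared genes and the grey line is their median. The fbxa medians of hypoxia over normoxia, at 0.51 and 0.49, lie above the band. For the elt-2 label over control food in normoxia and hypoxia, the fbxb medians, at -0.43 and -0.22, lie below the band. So do the fbxc medians, at -0.25 and -0.19.

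At 2-fold, 1 member was higher and 8 were lower under the elt-2 label in normoxia, against 1.23% and 3.66% of all compared genes and 2.09% and 4.91% of genes with a mean of 1 to under 10 RPKM. In hypoxia 7 were higher and 9 lower, against 1.94% and 5.08%, and 2.89% and 7.48% of such low genes. All of the members past 2-fold in hypoxia and 7 of those in normoxia were fbxa loci. limma called 0 members for the average effect of the label, against 0.131% of all compared genes called higher and 0.976% lower, and 0.053% and 0.345% of low genes, and 30 members had an unadjusted p under 0.05. The member nearest to the threshold was fbxa-208, in the second chromosome III run from 1259416 to 1260176 (ce10, plus strand). It was listed at 0 RPKM on control food in normoxia, 1.33 on control food in hypoxia, 3.14 in the elt-2-labelled normoxia library and 6.40 in the elt-2-labelled hypoxia library, with both labelled libraries above both control libraries (limma average 1.86 ± 0.20 SE, adjusted p = 0.0701).

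The neighbour fbxa-61, in the same run from 1239276 to 1242730 (ce10, plus strand), showed the opposite order. It was at 2.34 and 2.41 RPKM on control food in normoxia and hypoxia, and at 0 and 0.405 RPKM in the elt-2-labelled libraries. Its average was -1.51 ± 0.22 (SE, limma adjusted p = 0.110). fbxa-88 was at 1.76 and 2.38 RPKM on control food and at 0.215 and 0.174 under the label, and fbxa-84 at 2.16 and 2.34 against 0.273 and 0.552. fbxa-6, on the same chromosome as fbxa-61, was at 1.31, 3.72, 0.151 and 0.465 RPKM on control food in normoxia and hypoxia and in the labelled normoxia and hypoxia libraries. In each of these genes both labelled libraries were below both control libraries, and none passed the test.

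The hypoxia ratios of the foods differed by 2-fold or more for 7 members, with 4 more positive under the elt-2 label and 3 more negative, against 1.99% and 3.15% of all compared genes and 3.02% and 5.36% of low genes, and this difference has no test. The 4 were fbxa-138, fbxa-30 and both fbxa-78 loci, all of the second chromosome III run, with differences of 1.35, 1.25, 1.08 and 1.02 on the log2 scale. fbxa-138 and fbxa-30 reached a mean of 1 RPKM only through the elt-2-labelled hypoxia library, so the filter favoured large differences for them. fbxa-157, on chromosome V, was at 2.91 RPKM on control food in normoxia, 8.62 on control food in hypoxia, 3.58 in the elt-2-labelled normoxia library and 3.12 in the elt-2-labelled hypoxia library. Only the hypoxia library of control food was high. fbxa-190 on chromosome X was at 1.86, 2.74, 1.16 and 0.233 RPKM in that order, and the elt-2-labelled hypoxia library was low. fbxa-51, in the first chromosome III run, was at 5.72, 8.88, 4.85 and 2.99 RPKM, the one compared member of that run with a ratio below 0 under the label.

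Set directly against control food in normoxia, the elt-2-labelled hypoxia library had 27 members past 2-fold upward and 29 downward, against 8.78% and 6.64% of all compared genes and 12.7% and 9.31% of those with a mean of 1 to under 10 RPKM. The 27 higher comprised 26 of fbxa and 1 of fbxc, and the lower ones 7 of fbxa, 20 of fbxb and 2 of fbxc. The medians were 0.42 for fbxa, -0.57 for fbxb and -0.09 for fbxc, against 0.03 for all compared genes. This comparison changes oxygen and label at once, so it does not separate them.

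The authors' own calls, each of 1 library against 1 library, included few members. In the authors' deposited table of hypoxia over normoxia on control food, fbxa-164 was called higher, with an adjusted p of 0.0181, and 0.467% of all tested loci were called. fbxa-164, on chromosome II from 1612841 to 1614066 (ce10, minus strand), was listed at 1.88 RPKM on control food in hypoxia and at 0 in the other libraries, so its mean of 0.47 RPKM kept it out of the ratios above. In the authors' deposited table of the label in hypoxia it was called lower (adjusted p 0.0234), among 0.921% of loci called. In the authors' deposited table of the label in normoxia, fbxa-61 and fbxa-53 were called lower (adjusted p 0.0101 and 0.0234), among 0.531% of loci called. Against control food in hypoxia, fbxa-164, fbxa-61 and fbxa-53 were lower in the elt-2-labelled normoxia library in the authors' deposited table (1.56% of loci called), a comparison that changes oxygen and label at once. fbxa-53, on chromosome X, was at 1.19, 1.73, 0 and 0.0439 RPKM. The authors' deposited table of hypoxia under the label called 0 of 229 tested members, among 0.712% of loci, and that of both changes at once 0 of 240 tested members, among 1.23% of loci.

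Partners of F-box proteins in the SCF ligase changed in part. Of 19 compared Skp1-related genes limma called 6 higher and 8 lower in hypoxia, against the shares of 17.2% and 15.7% given above. The major adapters skr-1 and skr-2 did not pass the test, at 228, 239.6, 231 and 235 RPKM and at 352, 349, 342 and 331 RPKM. skr-5 was at 1.78 RPKM on control food in normoxia, 13.6 on control food in hypoxia, 0.600 in the elt-2-labelled normoxia library and 6.58 in the elt-2-labelled hypoxia library, and rose by 2.32 ± 0.16 (SE, limma adjusted p = 0.0144). skr-3 and skr-4, which with skr-5 are adapters of CUL-6, rose by 1.20 and 1.37. skr-10, skr-9, skr-14, skr-15 and skr-7 were among those that fell, skr-10 by 1.51. Of 18 cullin, RING and neddylation genes 2 rose and 4 fell, against the same 17.2% and 15.7% of all compared genes. cul-6, the cullin of the intracellular pathogen response, was at 2.02, 5.01, 3.08 and 11.1 RPKM and rose by 1.28 ± 0.22 (SE, limma adjusted p = 0.0304). cul-1, the cullin of the general SCF ligase, was at 68.4, 42.5, 62.7 and 46.7 RPKM and fell by 0.55 ± 0.10 (SE, limma adjusted p = 0.0327).

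Among 8 F-box genes outside the 3 families, 1 rose and none fell, against 17.2% and 15.7% of all compared genes. That gene, ftr-1, a relative of the germline sex-determination gene fog-2, was at 17.6, 32.2, 16.9 and 29.0 RPKM and rose by 0.79 ± 0.10 (SE, limma adjusted p = 0.0214). fog-2 itself, at 113, 108, 123 and 109 RPKM, and lin-23, which limits cell division, at 65.9, 58.5, 74.98 and 72.3 RPKM, did not pass the test. A list for the intracellular pathogen response took every pals gene by name, with cul-6, skr-3, skr-4, skr-5 and eol-1. Of its 17 compared genes 10 rose and none fell, against the same 17.2% and 15.7%. Medians were 0.70 on control food and 0.76 under the elt-2 label. Those that rose include cul-6, skr-3, skr-4 and skr-5, while eol-1 did not pass the test (limma adjusted p = 0.332). The pals gene pals-5 was too low to compare. Which pals genes the response induces was not examined, so the count is not a measure of its activity. Some pals genes adjoin the second chromosome III run: pals-40 lies inside its span and pals-17, pals-16, pals-19 and pals-18 within 6.87 to 21.2 kb of it. Of these pals-16, pals-17 and pals-18 were compared, and rose by 0.95, 0.88 and 1.22 (limma adjusted p = 0.0345, 0.0296 and 0.0253).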

How the data were processed

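The values the authors deposited are RPKM per locus, as the file headers say, in 6 tables of 1 library against another, and each library's values were the same in every table. Beside them stand a p-value and an adjusted p-value per locus from the authors' test, per the file headers. TopHat2 2.0.8b, Cufflinks 2.1.1 and the build ce10 are named, without roles, per the submitters' processing notes. The sources used here do not give the annotation or whether strand was used. Reads were paired, of 100 bp, from 1 lane, per the labels' protocols. Total depth is unknown, so no counting interval is given. Steps of low values put the worth of 1 read, relative to control food in normoxia, at 0.994 on control food in hypoxia and at 1.09 and 0.875 in the elt-2-labelled normoxia and hypoxia libraries.

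Ratios are log2 of (RPKM + 1) over (RPKM + 1). A locus was compared with a mean of 1 RPKM or more over the 4 libraries, where it named 1 gene and no table gave the status FAIL, HIDATA or LOWDATA, which left 10655. A further 17 loci naming several genes with an F-box name were left out. limma 3.58.1 in R 4.3.3 fitted additive terms for oxygen and RNAi with a mean-variance trend to all compared genes, with Benjamini-Hochberg adjustment over all of them. The fit was also run on simulated data with equal hypoxia effects in both foods. That run cannot show how the p-values behave where the foods truly differ. Nothing says that libraries came from separate cultures. The residual of the fit is the interaction of oxygen and RNAi, moderated across genes. The p-values and SE thus reflect how far the hypoxia ratios of the foods differ, which may be technical or real. They do not measure variation between repeated cultures. Medians, counts and figures were computed in Python 3.11.15 with pandas 2.3.3, numpy 2.4.6 and matplotlib 3.10.9. Current names and gene types came from RefSeq and WBcel235 tables, matched by accession for 263 members and by symbol for 81, and coordinates were taken from the files, 1-based.

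The members and all lists were chosen with earlier results of these data known. Named were the 12 members with the highest mean, the strongest ratios of each comparison, every member called by limma or the authors, the partners of CUL-6 and the loci next to the mean limit. Not all 94 named members have their values printed. Of the other marker lists, 2 of 8 neuron and 2 of 5 epidermis genes rose in hypoxia and none fell, against 17.2% and 15.7% of all compared genes. Protein and promoter sequences were not used here.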

Additional observations from a re-analysis of the deposited data

How the results depend on the processing

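No result past its threshold changed sign under the alternatives tried: pseudocounts of 0.1 and 5 RPKM, no filter, a mean of at least 5 RPKM, centring on the median gene or (chosen after seeing the data) on genes of a like level, status OK only, 4-fold, limma without a trend or at an adjusted p of 0.10, and (chosen after seeing the data) members overlapping no other locus or outside the chromosome III runs. For the ratio of a locus only centring could turn the sign, since pseudocounts, filters and cut-offs cannot. The limma average of a locus could turn only with centring or a changed pseudocount. For single loci the other settings are thus no check of direction. Counts of members past 2-fold are given as higher and lower, for hypoxia on control food, hypoxia under the elt-2 label, the label in normoxia, the label in hypoxia, and both changes at once, where they moved by over 1.5 times from 21 and 13, 27 and 9, 1 and 8, 7 and 9, and 27 and 29. With a pseudocount of 0.1 they were 32 and 21, 47 and 21, and 6 and 21 for the first 3. With a pseudocount of 5 they were 5 and 4, 6 and 3, 0 and 0, 0 and 1, and 10 and 5. With a mean of at least 5 RPKM they were 8 and 8, 13 and 6, 0 and 0, 1 and 3, and 10 and 13. At 4-fold they were 2 and 0, 2 and 0, 1 and 0, 0 and 0, and 3 and 2. With status OK only, 5 were lower under the label in normoxia. Centred on genes of a like level, 21 and 17 were lower in hypoxia on control food and under the label. Outside the chromosome III runs they were 13 and 13, 10 and 9, 0 and 5, 3 and 7, and 11 and 27. limma's hypoxia calls, 39 higher and 26 lower, became 0 and 0 with no filter, 19 and 17 among loci averaging 5 RPKM or more, 24 and 30 centred on genes of a like level, 22 and 25 outside the chromosome III runs, and 59 and 39 at 0.10, where the label called 1 member higher. Fewer loci were tested with a higher mean and outside the runs, and for the other settings the cause was not tested. Of the 65 calls, 47 were kept with centring on genes of a like level and 50 without a trend. No paired analysis was possible because each group has 1 library. With 1 library a group, no value here has a replicate error, the limma fit rests on 1 residual degree of freedom, and levels near 1 RPKM rest on few reads of unknown number.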

Other observations

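The genes named math or bath, a second large group in C. elegans taken here by name, were also mostly low in level and unequal in direction. Proteins with a BTB domain can serve cullin CUL-3 as adapters, but not every gene of this group encodes such a domain. Of 84 loci 50 were compared, and limma called 14 higher and 3 lower in hypoxia, against 17.2% and 15.7% of all compared genes, with median log2 ratios of 0.53 on control food and 0.10 in the elt-2-labelled libraries. math-14 was at 1.98 RPKM on control food in normoxia, 9.22 on control food in hypoxia, 5.58 in the elt-2-labelled normoxia library and 21.2 in the elt-2-labelled hypoxia library, and rose by 1.77 ± 0.14 (SE, limma adjusted p = 0.0146). bath-31 was at 11.4, 2.65, 8.53 and 1.79 RPKM in that order and fell by 1.77 ± 0.15 (SE, limma adjusted p = 0.0153). bath-46 was at 0.275, 1.54, 1.07 and 13.8 RPKM, high in 1 library, and did not pass the test (limma adjusted p = 0.0605).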
